A study of Mus musculus with 20 samples.

Results

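The genes described here break down the branched-chain amino acids leucine, isoleucine and valine. 9 genes were taken by name, out of 36611 genes to which the deposited transcripts could be summed. They are *Bcat2*, *Bckdha*, *Bckdhb*, *Dbt*, *Bckdk*, *Ppm1k*, *Hibadh*, *Pcca* and *Pccb*. No measured value was used to choose them by rule, and all 9 passed the filter on low values in every comparison.

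The RNA came from subcutaneous inguinal white adipose tissue (iWAT) of female C57BL/6 mice aged 6 months, kept for 15 weeks on one of 2 diets. The low fat diet (LFD) had 10.5% of fat and the high fat diet (HFD) had 58%. The control mice were Tmem120a fl/fl littermates that carried floxed *Tmem120a* and no Cre. The Ad-Tmem120a-/- mice carried the same floxed alleles and Cre recombinase under the adiponectin promoter, which acts in mature adipocytes, so that the other cells of the fat pad keep the gene. Each of the 4 groups held 5 mice with 1 library each: control LFD, knockout LFD, control HFD and knockout HFD. The floxed line and the Cre line came from different C57BL/6 substrains, so alleles linked to either parent cannot be told apart from loss of *Tmem120a*.

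Breakdown starts with a reversible amino transfer, which in mitochondria is made by the product of *Bcat2*. The branched-chain 2-oxoacid dehydrogenase complex then removes the carboxyl group in the step that commits the carbon to breakdown. Its E1 part is built from alpha and beta subunits (*Bckdha*, *Bckdhb*), and its E2 core is the product of *Dbt*. The kinase encoded by *Bckdk* switches the complex off by phosphorylating E1 alpha, and the phosphatase encoded by *Ppm1k* switches it on. *Hibadh* acts late in valine breakdown, and *Pcca* and *Pccb* encode the subunits of propionyl-CoA carboxylase, which takes up the propionyl-CoA formed from valine and isoleucine. Adipocytes are known for breaking down these amino acids as they mature, and the carbon can enter fat synthesis.

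The genes lie on 5 chromosomes of the mouse (build NCBIM37). *Bcat2* (ENSMUSG00000030826) is on chromosome 7 from 52825523 to 52845080, *Bckdha* (ENSMUSG00000060376) on chromosome 7 from 26414871 to 26443780, and *Bckdk* (ENSMUSG00000030802) on chromosome 7 from 135047596 to 135053178. *Bckdhb* (ENSMUSG00000032263) spans 83818757 to 84017846 and *Pccb* (ENSMUSG00000032527) spans 100882451 to 100935317 on chromosome 9. *Dbt* (ENSMUSG00000000340) is on chromosome 3 from 116215988 to 116252894, and *Pcca* (ENSMUSG00000041650) on chromosome 14 from 122933546 to 123290322. *Ppm1k* (ENSMUSG00000037826) is on chromosome 6 from 57456496 to 57485420, and *Hibadh* (ENSMUSG00000029776) on chromosome 6 from 52496222 to 52590383.

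*Bckdha* and *Bckdhb* encode partner subunits of one enzyme. In TPM, transcript abundance scaled for length and depth, their sums did not follow each other from mouse to mouse. Counts scaled to library size are given beside this further on. The 250 bases before the start of each of these genes are set side by side as a description, and their part in the levels was not tested. They are from RefSeq on build GRCm38.p6, 5′ to 3′ on the strand of the gene. Capitals mark the GC box GGGCGG and the inverted CCAAT box ATTGG, each searched on both strands. The *Bckdhb* stretch is chr9:83924887-83925136 on the plus strand, and the *Bckdha* stretch is chr7:25658762-25659011 on the minus strand.
*Bckdhb*: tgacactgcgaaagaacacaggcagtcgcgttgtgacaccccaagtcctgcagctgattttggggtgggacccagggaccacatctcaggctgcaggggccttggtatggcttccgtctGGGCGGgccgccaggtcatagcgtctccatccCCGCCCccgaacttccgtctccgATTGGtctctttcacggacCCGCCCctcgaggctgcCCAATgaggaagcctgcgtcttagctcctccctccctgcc
*Bckdha*: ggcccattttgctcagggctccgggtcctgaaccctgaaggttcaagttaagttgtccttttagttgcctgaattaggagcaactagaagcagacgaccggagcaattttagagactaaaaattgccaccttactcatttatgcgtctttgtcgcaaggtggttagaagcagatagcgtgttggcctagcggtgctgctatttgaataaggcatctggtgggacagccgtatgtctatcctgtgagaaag
The *Bckdhb* stretch held 3 GC boxes and 2 inverted CCAAT boxes and was 63.2% G and C. The *Bckdha* stretch held neither and was 47.6% G and C. Over all 32851 RefSeq promoters of the same length, 32.7% held a GC box and 33.8% an inverted CCAAT box. 8 of the 9 genes had an entry, of which 3 held a GC box and 5 an inverted CCAAT box. A nuclear receptor element (AGGTCA) was in 3 of the 8, against 14% of all promoters, and an E box (CACGTG) was in none of the 8, against 6.02%.

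The library totals ranged from 54605101 to 92387737 estimated counts. *Tmem120a* checked the genotype: in TPM, transcript abundance scaled for length and depth, it ranged from 57.9 to 131.9 in control LFD and from 21.5 to 74.0 in knockout LFD, and from 83.3 to 195.7 in control HFD and from 29.5 to 89.7 in knockout HFD. The ranges overlapped on both diets, and the RNA left comes from tissue that also holds cells without Cre. With both diets in 1 fit *Tmem120a* fell by 1.64 on the log2 scale in knockout mice (standard error 0.24, edgeR quasi-likelihood adjusted p = 0.004522). The summed TPM of 13 white adipocyte markers lay between 17851 and 37064 in all libraries, which marks the tissue as fat. Muscle fibre markers were uneven. Their summed TPM was 51.3 to 132.5 in control HFD, 122.3 to 1911 in knockout HFD, 71.3 to 1286 in knockout LFD, and 75.0 to 343.9 in control LFD apart from replicate 5 at 4190.

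All 9 genes were expressed in every mouse, at levels that per transcript length placed *Pccb* and *Hibadh* at the top and *Ppm1k* at the bottom. Over the 20 libraries the mean was 73.4 TPM ± 15.6 (SD, n = 20) for *Pccb* and 72.8 ± 13.8 for *Hibadh*, and *Pccb* was the higher of the pair in 9 of 20 libraries, so this pair has no order. *Bckdhb* followed with 51.2 TPM ± 17.2 and *Dbt* with 31.3 ± 4.66. *Bckdk* had 21.9 TPM ± 11.7, *Bckdha* 17.8 ± 9.59 and *Pcca* 17.3 ± 4.37. *Bckdk* exceeded *Bckdha* in 13 of 20 libraries and *Bckdha* exceeded *Pcca* in 9 of 20, so these levels do not differ beyond their spread either. *Bcat2* had 11.1 TPM ± 3.75 and *Ppm1k* 8.78 ± 1.64, with *Bcat2* higher in 15 of 20 libraries. The summed TPM of the kinase gene over that of the phosphatase gene had a median ratio of 2.45 over the 20 libraries, with single libraries between 0.799 and 7.66. The group medians of this ratio were 2.42 in control LFD, 2.12 in knockout LFD, 2.47 in control HFD and 2.58 in knockout HFD, with overlapping ranges. The *Bckdk* sum includes shorter transcripts, which raise it in TPM. Its transcript of 2848 bases alone had group means of 7.91 to 11.7 TPM, against 7.77 to 9.74 for *Ppm1k*, so no excess of kinase message was shown. *Bckdhb* stood above *Dbt* in TPM in 18 of 20 libraries with its short transcript of 435 bases counted in. Its long transcript of 1472 bases alone was 15.6 to 42.3 TPM, against 24.1 to 37.9 for *Dbt*, so no clear order was shown. Counts scaled to library size were 18.9 to 52.7 for *Bckdhb* and 46.6 to 79.3 for *Dbt*. They are not scaled for length, and the *Dbt* transcript has 3296 bases.

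**Figure D1:**
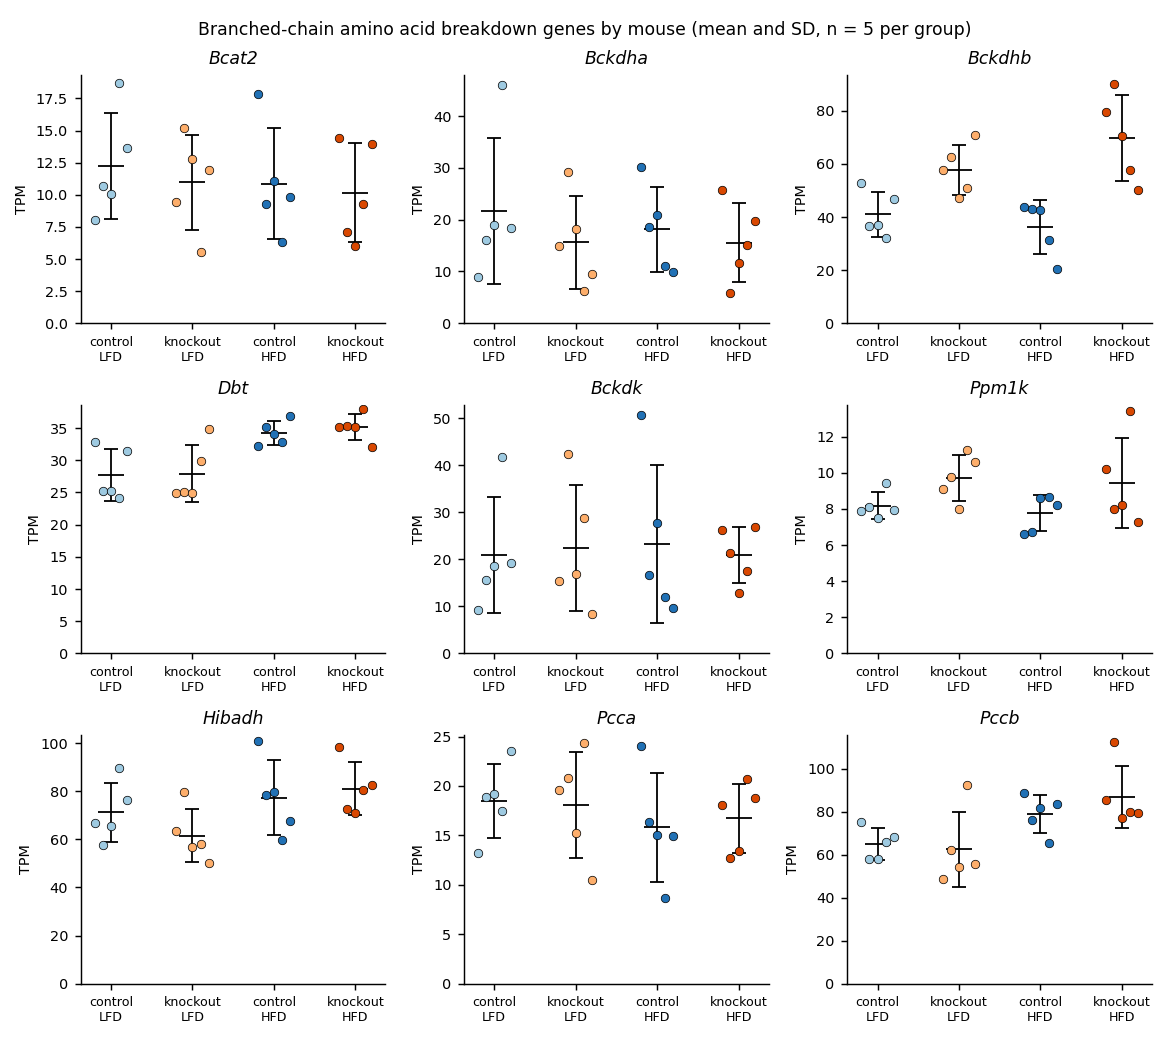
Level of the 9 genes in TPM (y axis, from 0) in the 5 mice of each of the 4 groups (x axis); points are mice, the bar is the mean and the whisker the SD. The *Bckdhb* panel is the one where the 5 knockout mice on HFD (50.2 to 90.2 TPM) sit above the 5 control mice on HFD (20.4 to 43.8 TPM), while *Bckdha*, *Bcat2* and *Bckdk* spread widely within each group.

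The first question was whether HFD changed these genes in control iWAT. None of the 9 passed an adjusted p under 0.1 (edgeR quasi-likelihood, Benjamini-Hochberg over all genes), where 9.32% of the 15311 genes tested did. 3 of the 9 had an unadjusted p under 0.05, against 20.7% of all genes, and the fitted values of these 3 were below 0. *Pcca* was at 18.5 TPM ± 3.72 (SD, n = 5) in control LFD and 15.8 ± 5.48 in control HFD, a log2 difference of -0.49 (95% interval -0.96 to -0.03, adjusted p = 0.2131, edgeR). *Bckdhb* had a log2 difference of -0.38 (-0.76 to -0.01, adjusted p = 0.2318, edgeR), and *Ppm1k* one of -0.32 (-0.64 to -0.01, adjusted p = 0.2306, edgeR). Over the 9 genes the log2 differences ran from -0.49 to 0.09 with a median of -0.32, and over all genes tested the median was -0.04. The precision differed between the genes. The 95% interval was 0.866-fold to 1.26-fold for *Pccb* and 0.881-fold to 1.29-fold for *Dbt*, but 0.601-fold to 1.60-fold for *Bckdk*, and that of *Bckdha* reached down to 0.382-fold. The groups of each of the 9 genes overlapped, where 9.78% of all genes did not. Markers of other cells moved in this comparison. 10 of 14 tested muscle fibre markers and 4 of 11 brown and beige fat markers passed as lower on HFD. The fitted values of all 14 and all 11 were below 0. The summed brown and beige markers were 112.1 to 796.2 TPM in control LFD and 75.2 to 264.8 TPM in control HFD. Their part in the values of the 9 genes was not tested, and in bulk tissue fewer cells of a type and less RNA per cell cannot be told apart. Without control LFD replicate 5, the mouse with the highest muscle sum, none of the 9 passed either.

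The sign of small values differed between fits here, and the cause was not tested. With limma on log2(TPM + 1) the median of all genes in control mice was 0.13. In that fit *Hibadh* had 0.11 and *Bckdk* 0.07, where the count fit had -0.10 for *Hibadh* and -0.03 for *Bckdk*. *Dbt* was at 27.7 TPM ± 4.08 (n = 5) in control LFD and 34.2 ± 1.81 in control HFD, and *Pccb* at 65.0 ± 7.33 and 79.1 ± 8.82. Their count fits gave log2 differences of 0.09 and 0.06. The higher TPM of these 2 genes on HFD is therefore to be read beside the shift of all genes on that scale.

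In knockout iWAT the answer was the same by count. None of the 9 passed, against 9.4% of the 15705 genes tested. *Hibadh* alone had an unadjusted p under 0.05, as 19.8% of all genes had: its values were 63.3, 79.6, 56.8, 58.0 and 50.2 TPM in knockout LFD and 98.5, 72.6, 71.2, 80.5 and 82.6 TPM in knockout HFD. The groups overlapped through 1 LFD mouse at 79.6 TPM, and the log2 difference was 0.27 (95% interval 0.01 to 0.54, adjusted p = 0.2329, edgeR). *Pccb* was 48.7, 62.0, 54.2, 92.6 and 55.7 TPM in knockout LFD, and 85.7, 112.4, 77.0, 79.9 and 79.6 TPM in knockout HFD. The LFD mouse at 92.6 TPM, replicate 9, lay above 4 of the 5 HFD mice. The log2 difference of *Pccb* was 0.38 with all mice (adjusted p = 0.342, edgeR) and 0.60 without that replicate (adjusted p = 0.0499, edgeR), so this call rests on 1 library. The groups of each of the 9 genes overlapped, where 7.95% of all genes did not. The median over the 9 genes was 0.04, and over all genes 0.00. With both genotypes in 1 fit none of the 9 passed for diet either, where 25.2% of genes did, and *Ppm1k* had the lowest adjusted p (-0.26, adjusted p = 0.1401, edgeR).

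**Figure D2:**
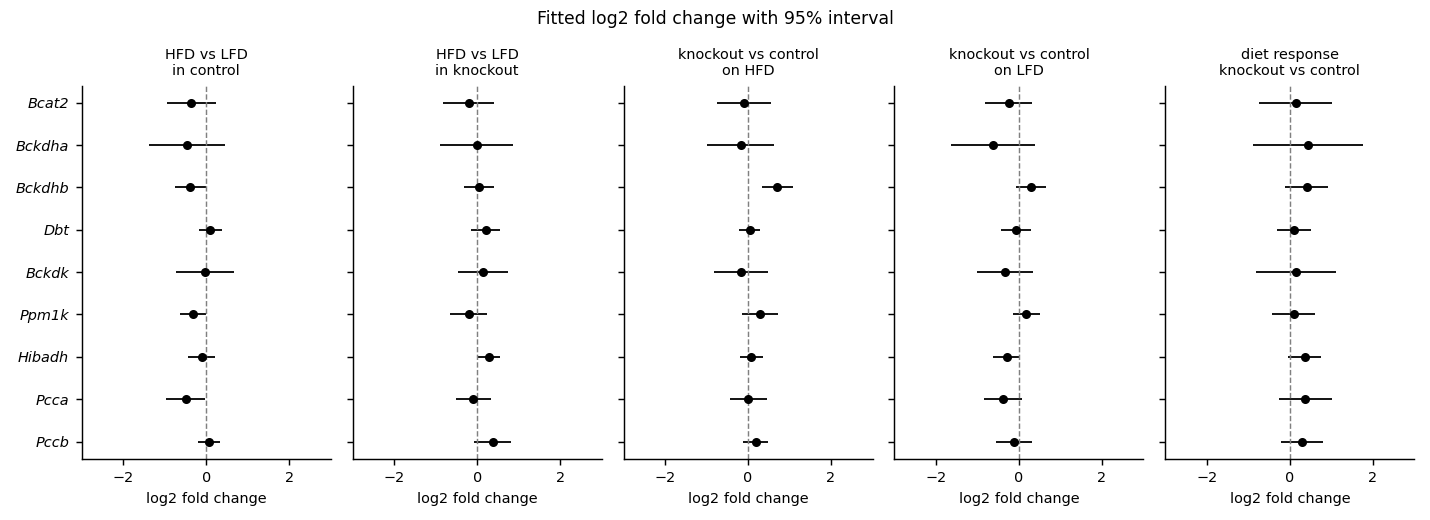
Fitted log2 fold change (x axis) of the 9 genes (rows) in the 5 comparisons (panels), with 95% intervals from the edgeR fit; the first named group of each title is over the second, and the last panel is the diet response in knockout mice minus that in control mice. The interval of *Bckdhb* for knockout against control on HFD runs from 0.33 to 1.09, and most of the others cross 0.

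The genotype comparison on HFD had 1 gene that stood apart in level. *Bckdhb*, the E1 beta subunit, was 43.8, 42.9, 42.6, 31.3 and 20.4 TPM in the 5 controls, against 79.6, 90.2, 70.5, 57.7 and 50.2 TPM in the 5 knockout animals. Each knockout mouse lay above each control mouse, as 0.69% of the 15228 genes tested did in either direction. On the count scale the groups were also apart, with 18.9 to 28.7 CPM (counts scaled to library size) in control and 34.2 to 52.7 in knockout mice. The fitted log2 difference was 0.71 (standard error 0.17, 95% interval 0.33 to 1.09), which is 1.63-fold. Its unadjusted p was 0.001476, where 4.66% of genes were under 0.05, and its adjusted p was 0.3896 (edgeR), so it did not pass the threshold that 0.00657% of genes passed. DESeq2 gave 0.70 with an adjusted p of 0.0394 and called 0.657% of all genes. Over the edgeR and limma alternatives and each mouse left out, the adjusted p lay between 0.12 and 0.836 and the log2 difference between 0.57 and 0.98.

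On LFD the same gene was 52.7, 36.6, 36.9, 32.2 and 46.8 TPM in the controls, against 57.7, 62.5, 47.2, 50.8 and 70.8 TPM in the knockout animals. The groups overlapped through 1 control mouse at 52.7 TPM, and the log2 difference was 0.29 (-0.07 to 0.64, adjusted p = 0.9293, edgeR). With both diets in 1 fit the knockout was higher by 0.49 on the log2 scale (0.22 to 0.76, unadjusted p = 0.001025, adjusted p = 0.3496, edgeR), where 0.0385% of genes passed. The test of whether the genotype difference itself differed between diets gave 0.40 (-0.11 to 0.92, adjusted p = 0.9999, edgeR), so no difference between diets was shown.

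**Figure D3:**
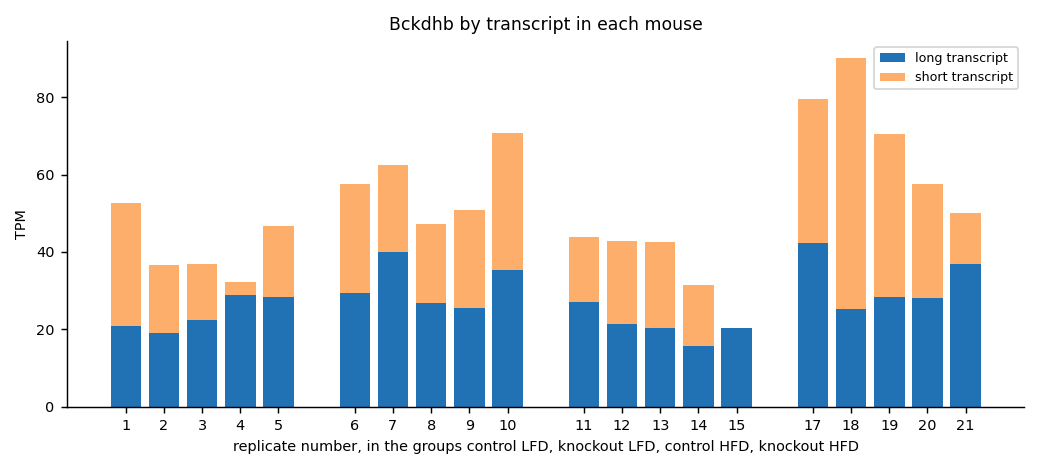
*Bckdhb* in TPM (y axis) in each of the 20 mice (x axis, replicate numbers in 4 groups), stacked by its 2 annotated transcripts: the long one of 1472 bases and the short one of 435 bases. The short transcript is 0 in control HFD replicate 15 and 64.9 TPM in knockout HFD replicate 18, while the long one stays between 15.6 and 42.3 TPM.

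The 2 annotated transcripts of *Bckdhb* differ in size, which matters for TPM. The long one (ENSMUST00000034801) has 11 exons and 1472 bases. The short one (ENSMUST00000113206) has 3 exons and 435 bases at the 3′ end of the gene, from 84014405 to 84017846. The long transcript was 20.8, 18.98, 22.4, 28.9 and 28.4 TPM in control LFD and 27.0, 21.5, 20.4, 15.6 and 20.4 TPM in control HFD. In knockout mice it was 29.3, 39.9, 26.7, 25.5 and 35.3 TPM on LFD and 42.3, 25.2, 28.4, 28.0 and 36.9 TPM on HFD. On HFD the long transcript overlapped between genotypes through knockout replicate 18 at 25.2 TPM, below control replicate 11 at 27.0. The short transcript ranged from 0 to 22.2 TPM in control HFD and from 13.2 to 64.9 TPM in knockout HFD. How estimated counts split between transcripts that share 3′ sequence is uncertain, and the gene sums above do not depend on that split in counts.

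Other values that moved with genotype on HFD, or with both diets in 1 fit, are given beside this result, and their part in it was not tested. The muscle fibre marker sum was 51.3 to 132.5 TPM in control HFD and 122.3 to 1911 in knockout HFD. Of the 15 markers 14 were tested and all 14 had values above 0 for knockout over control on HFD, with a median of 5.07. All 14 had an unadjusted p under 0.05 and none was called, and none of the 15 was at 0 throughout a group. The brown and beige fat marker sum was 75.2 to 264.8 TPM in control HFD and 101.9 to 817.6 TPM in knockout HFD, with 3 of 11 markers at an unadjusted p under 0.05 and none called. On LFD both marker lists lay on the other side. There 0 of 15 muscle markers and 1 of 11 brown and beige markers were above 0 for knockout over control. The medians were -0.85 and -0.78, and none was called. The muscle sum's Pearson correlation with *Bckdhb* on log2(TPM + 1) was 0.50 over the 20 libraries and 0.17 once group means were taken off. In the 5 knockout HFD mice, by rising muscle sum (122.3, 457.8, 1068, 1301 and 1911), *Bckdhb* was 50.2, 90.2, 57.7, 70.5 and 79.6 TPM. In the 5 control LFD mice, by rising sum (75.0, 120.0, 218.2, 343.9 and 4190), it was 36.6, 52.7, 32.2, 36.9 and 46.8 TPM. 2 genes further along the chromosome were looked up after their values were seen. *Cyb5r4*, a reductase gene 2.90 Mb away, had -0.16 for knockout over control with both diets in 1 fit (unadjusted p = 0.02081, adjusted p = 0.6, edgeR). The zinc finger gene *Zfp949* lies on the same chromosome 4.43 Mb further on (88442858 to 88465924). It was higher in knockout mice with both diets in 1 fit by 0.90 on the log2 scale (adjusted p = 0.004522, edgeR). The difference of *Zfp949* was 1.18 on LFD (adjusted p = 0.1173, edgeR) and 0.63 on HFD (adjusted p = 0.5912, edgeR). On HFD its groups overlapped, with 8.31 to 18.4 TPM in control and 11.9 to 16.7 TPM in knockout mice. Within 2 Mb of *Bckdhb* 13 other genes were tested on HFD, of which 1 had an unadjusted p under 0.05, and on LFD it was 1 of 14.

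For the other 8 genes the genotype groups overlapped on both diets and none passed, on LFD against 0.00636% of 15717 genes. On LFD none of the 9 had an unadjusted p under 0.05, as 5.11% of genes had, and 1.4% of genes had groups that did not overlap. On HFD their log2 differences ran from -0.18 for *Bckdk* to 0.29 for *Ppm1k*. On LFD they ran from -0.63 for *Bckdha* to 0.17 for *Ppm1k*, and *Bckdhb* and *Ppm1k* were the only 2 of the 9 above 0. The *Bckdha* value has an interval from -1.64 to 0.39, or 0.321-fold to 1.31-fold. It rests on control values of 9.0, 16.1, 19.02, 46.0 and 18.4 TPM and knockout values of 14.9, 29.2, 18.2, 6.23 and 9.45 TPM, which overlap along most of their range.

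The diet response did not differ detectably between genotypes for any of the 9 genes, nor for any of the 15574 genes tested by this method (0% called by edgeR, 560 genes or 3.6% at an unadjusted p under 0.05, and 14 or 0.0899% called by DESeq2). The differences of the 9 genes were all above 0 in this fit, from 0.10 to 0.44 with a median of 0.29, and over all genes the median was 0.01. Lists of other mitochondrial genes lay on the same side: 13 of 13 tested genes of the pyruvate and 2-oxoglutarate dehydrogenases with a median of 0.25, and 14 of 14 citric acid cycle genes with a median of 0.43. Markers of other cells moved in the same comparison: 13 of 14 muscle fibre markers and 4 of 11 brown and beige fat markers had an unadjusted p under 0.05, with medians of 5.86 and 1.44 and none called, and their part was not tested. Direction over genes of 1 set of libraries is a description here, and *Bckdk* had the other sign with limma on log2(TPM + 1) and with length offsets.

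Mice of one group differed more from each other than the groups did for *Bckdha*, *Bckdk* and *Bcat2*. *Bckdha* ran from 5.78 to 46.0 TPM over the 20 mice, a 7.97-fold range, *Bckdk* 5.99-fold and *Bcat2* 3.38-fold, whereas *Dbt* ran 1.57-fold. The TPM of *Bckdk* also varied with its short transcripts, and its counts scaled to library size ran from 18.5 to 56.6 CPM. *Bcat2* and *Bckdha* varied together, with a Pearson correlation of 0.84 on log2(TPM + 1) over the 20 libraries, and 0.84 again once group means were taken off. *Bckdk* and *Hibadh* had 0.69, and 0.82 with group means off. *Dbt* and *Pccb* had 0.67, which fell to 0.34 with group means off. The 2 E1 subunits had -0.20, and *Bckdha* and *Dbt* had -0.42, the lowest of the 36 pairs. The -0.20 is for summed TPM, with the short *Bckdhb* transcript counted in. In CPM, control HFD replicates 11 to 15 had 66.5, 45.4, 50.3, 28.4 and 25.1 for *Bckdha*. The same mice had 28.7, 25.8, 24.2, 18.9 and 20.5 for *Bckdhb*. Knockout LFD replicates 6 to 10 had 41.5, 70.7, 47.8, 17.8 and 26.1 for *Bckdha*, against 40.0, 43.3, 32.9, 34.6 and 46.2 for *Bckdhb*. The median over the pairs was 0.09, with 14 pairs below 0. These are descriptions over libraries that also share tissue makeup and library composition.

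The levels of several of the 9 genes moved with the base composition of the libraries. For each library a GC score was taken as the Spearman correlation, over 13920 genes with a known transcript sequence (89.4% of those over the filter), between the gene's deviation from its mean level and the GC content of its longest coding transcript. A score above 0 means that GC-rich genes read high in that library. Scores ran from -0.39 to 0.36 in control LFD, -0.36 to 0.40 in knockout LFD, -0.28 to 0.46 in control HFD and -0.34 to 0.35 in knockout HFD, so each group held libraries of both kinds. The Pearson correlation with this score over the 20 libraries was 0.90 for *Bckdha*, 0.86 for *Bcat2* and 0.71 for *Bckdk*. It was 0.58 for *Hibadh* and 0.53 for *Pcca*. It was -0.17 for *Bckdhb*, -0.20 for *Pccb*, -0.28 for *Ppm1k* and -0.47 for *Dbt*. The *Bckdhb* value is for summed TPM, with the short transcript counted in. By rising score, its long transcript was 15.6, 20.4, 21.5, 20.4 and 27.0 TPM in control HFD. It was 25.2, 28.4, 28.0, 42.3 and 36.9 TPM in knockout HFD. On LFD it was 20.8, 22.4, 18.98, 28.4 and 28.9 TPM in control and 25.5, 35.3, 29.3, 26.7 and 39.9 TPM in knockout mice. The *Bckdha* transcript is 59.3% G and C, higher than 94.3% of genes, and the transcripts of *Dbt* and *Ppm1k* are at 42.1% and 39.9%, where the median gene is at 49.9%. *Bckdhb* is near the middle at 50.2%. The order by GC content was not the order by correlation: *Hibadh* at 47.3% and *Pcca* at 46.8% lie below the median gene and had correlations above 0, and *Pccb* at 51.3% lies above it and had one below 0. The brown and beige fat marker sum also followed several genes over the 20 libraries. Its correlation was 0.73 for *Bckdha*, 0.65 for *Pcca*, 0.62 for *Bckdk*, 0.56 for *Bcat2* and 0.53 for *Hibadh*. It was 0.11 for *Bckdhb*, 0.08 for *Ppm1k*, -0.18 for *Pccb* and -0.49 for *Dbt*. The macrophage marker sum had 0.67 for *Bckdha*, 0.62 for *Bcat2* and -0.16 to 0.38 for the others. The part of these sums was not tested. The GC score is built from the same libraries, which share depth and tissue makeup, and its part in the spread of these genes was not tested apart from the fit that follows.

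**Figure D4:**
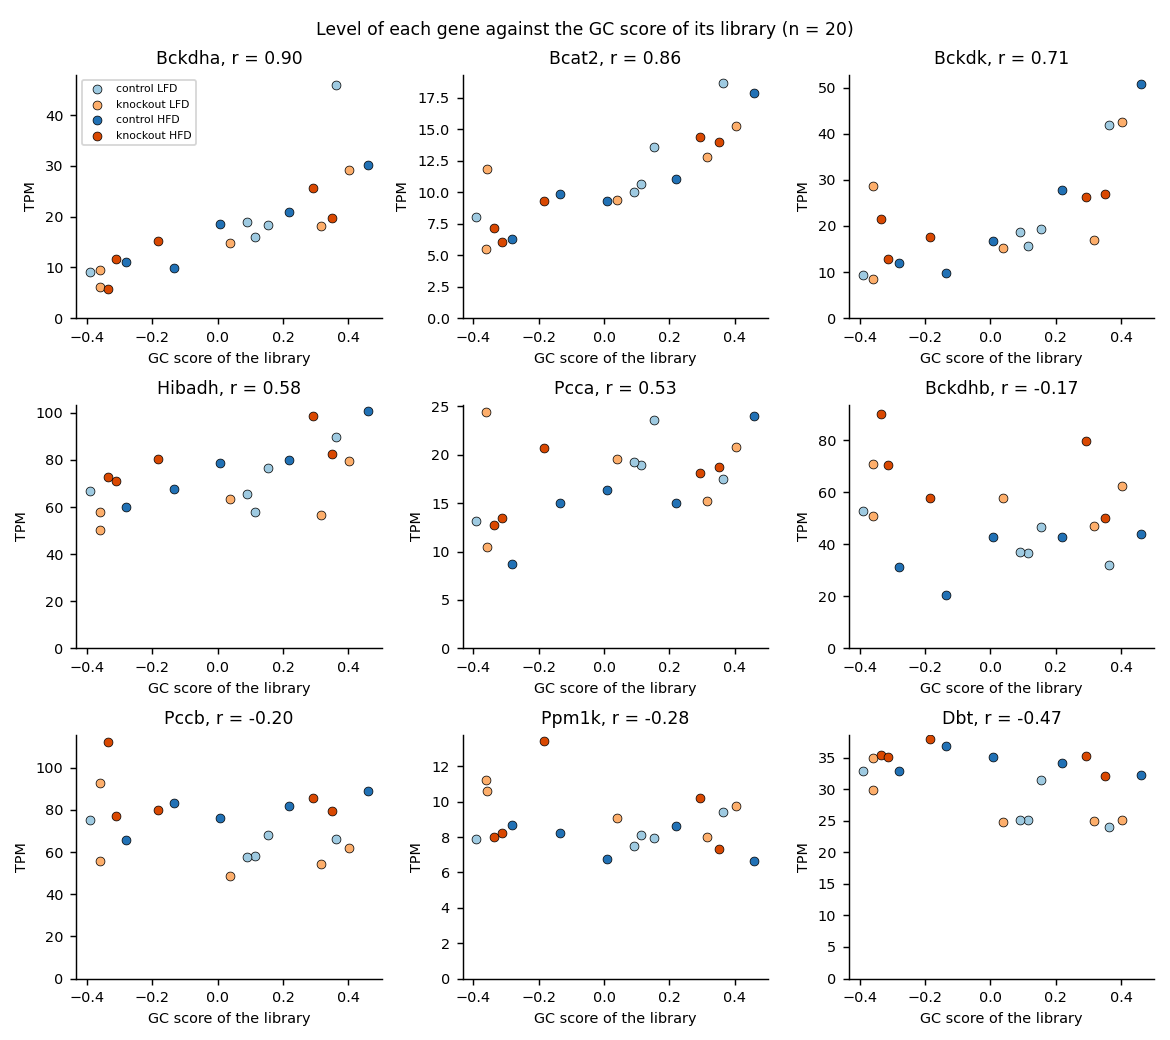
Level of each of the 9 genes in TPM (y axis, from 0) against the GC score of the library (x axis, a Spearman correlation with no unit), 20 libraries coloured by group; r is the Pearson correlation of log2(TPM + 1) with the score, and panels are ordered by it. *Bckdha* and *Bcat2* rise from left to right, and the summed TPM of *Bckdhb*, with its short transcript counted in, does not.

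With the GC score as a covariate, added after the data were seen, the fit called 21.7% of genes for diet in control mice and 22% in knockout mice. In control mice 2 of the 9 then passed, both lower on HFD: *Pcca* at -0.50 (standard error 0.14, adjusted p = 0.0452, edgeR) and *Bckdhb* at -0.39 (standard error 0.14, adjusted p = 0.082, edgeR). In knockout mice *Hibadh* passed, higher on HFD at 0.28 (standard error 0.10, adjusted p = 0.0937, edgeR). On HFD *Bckdhb* differed between genotypes by 0.78 (standard error 0.12, unadjusted p = 3.624e-05, adjusted p = 0.1199, edgeR), where 0.0131% of genes passed. The score was computed from the same libraries and the fit treats it as known without error.

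The other 32 genes of the pathway, from a list that covers transport, the steps between those above and cofactors, held the diet calls. All 32 were tested. In control mice 2 passed as higher and 2 as lower on HFD, against 4.42% and 4.9% of all genes. In knockout mice 5 passed as higher and 2 as lower, against 4.55% and 4.85%. No gene of this list passed for genotype on either diet or for the difference in diet response.

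*Slc43a1*, a carrier that lets large neutral amino acids such as leucine cross the cell membrane, fell on HFD in both genotypes. It was 10.5, 11.2, 13.04, 21.3 and 10.9 TPM in control LFD and 4.77, 4.24, 5.73, 4.86 and 5.03 TPM in control HFD, without overlap, as in 9.78% of genes. The log2 difference was -1.67 in control mice (adjusted p = 0.003579, edgeR) and -1.16 in knockout mice (adjusted p = 0.01975, edgeR). *Slc3a2*, the heavy chain that pairs with amino acid exchangers, rose in knockout mice by 0.56 (adjusted p = 0.0678, edgeR) and had 0.32 in control mice (adjusted p = 0.1207, edgeR). *Bcat1*, the cytosolic partner of *Bcat2*, rose in control mice by 1.33 (adjusted p = 0.03762, edgeR). Its values were 19.2, 12.1, 14.4, 7.14 and 11.7 TPM on LFD and 22.7, 27.9, 35.2, 38.6 and 97.2 TPM on HFD. In knockout mice *Bcat1* had 0.53 (adjusted p = 0.5696, edgeR), and the difference between genotypes was -0.81 (adjusted p = 0.9999, edgeR). *Bcat2* by contrast had -0.36 in control mice (-0.95 to 0.23, adjusted p = 0.5009, edgeR).

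The subunits of methylcrotonyl-CoA carboxylase, which acts only in leucine breakdown, lay on opposite sides of 0. *Mccc1*, the biotin-bearing alpha subunit, was 99.4, 65.0, 59.6, 51.4 and 72.4 TPM in control LFD and 56.9, 49.0, 37.5, 43.7 and 35.3 TPM in control HFD. It fell by 0.68 on the log2 scale in control mice (adjusted p = 0.02361, edgeR) and by 0.51 in knockout mice (adjusted p = 0.05841, edgeR). *Mccc2*, the beta subunit, was 34.2, 36.6, 39.6, 32.3 and 47.1 TPM in knockout LFD and 72.9, 51.6, 45.4, 46.9 and 69.2 TPM in knockout HFD. It rose by 0.46 in knockout mice (adjusted p = 0.06203, edgeR) and had 0.31 in control mice (adjusted p = 0.2645, edgeR). The subunits of propionyl-CoA carboxylase had values on both sides of 0 as well, with *Pcca* at -0.49 and *Pccb* at 0.06 in control mice and -0.10 and 0.38 in knockout mice, none of which passed.

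Of the genes below propionyl-CoA carboxylase, *Mmab* passed in both genotypes. *Mmab*, which makes the vitamin B12 cofactor of the mutase, rose by 0.49 in control mice (adjusted p = 0.08174, edgeR) and by 0.84 in knockout mice (adjusted p = 0.01765, edgeR). It was 6.04 to 8.82 TPM in control LFD and 10.1 to 14.8 in control HFD, and 4.92 to 7.96 in knockout LFD and 9.33 to 16.3 in knockout HFD. The mutase gene *Mut* rose in knockout mice by 0.42 (adjusted p = 0.06529, edgeR) and had 0.05 in control mice (adjusted p = 0.877, edgeR). *Acat1*, the thiolase that ends isoleucine breakdown, rose in knockout mice by 0.43 (adjusted p = 0.09131, edgeR). From 2 to 7 of the 32 genes passed in knockout mice when single mice were left out. *Slc43a1* and *Mmab* passed each time, and the other 5 (*Slc3a2*, *Mccc1*, *Mccc2*, *Mut* and *Acat1*) did not. In control mice *Slc43a1*, *Bcat1* and *Mccc1* passed each time, and *Mmab* did not.

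**Figure D5:**
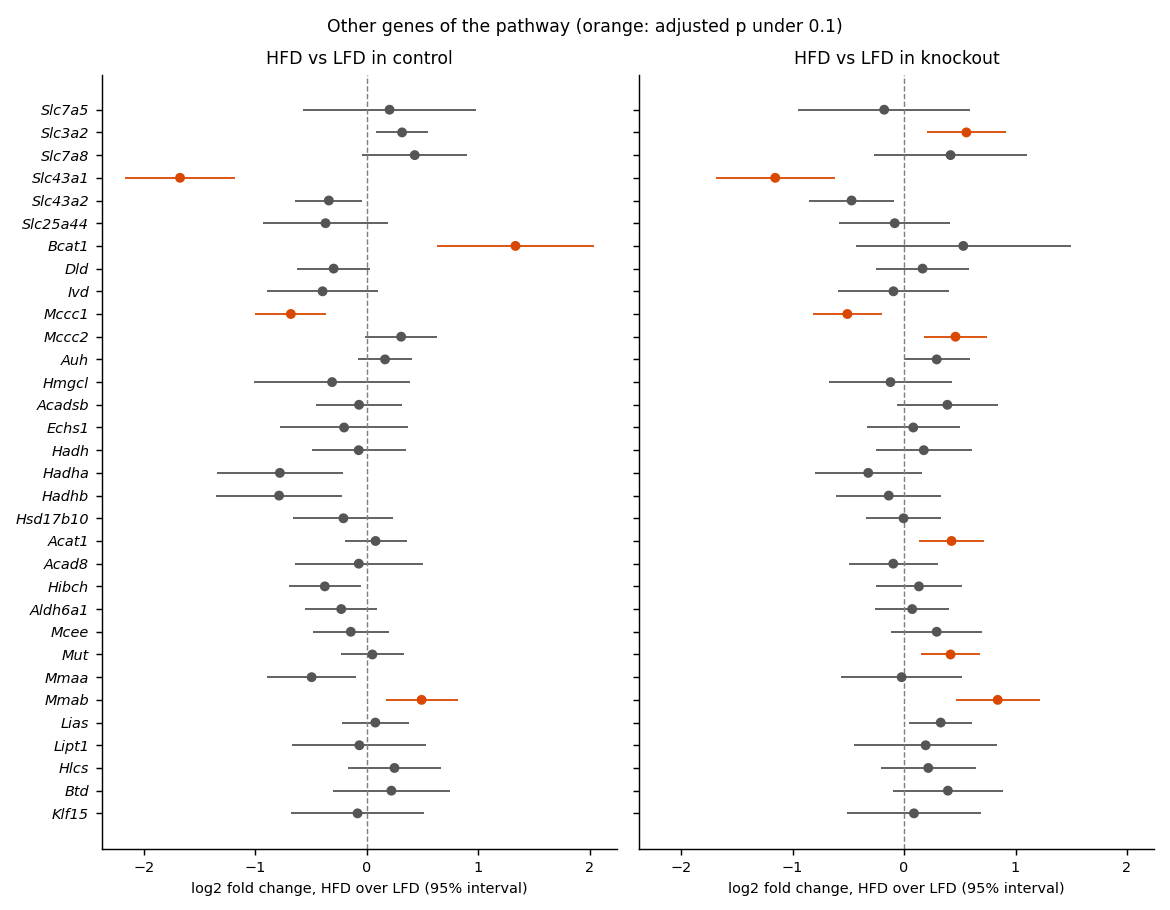
Fitted log2 fold change of HFD over LFD (x axis, 95% interval) for the other 32 genes of the pathway (rows) in control mice (left) and knockout mice (right); orange marks an adjusted p under 0.1. *Slc43a1* and *Mccc1* are orange on the left of 0 and *Mmab* on the right of 0 in both panels.

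Complexes of the same build gave a measure beside the branched-chain complex. They were 13 genes of the pyruvate and 2-oxoglutarate dehydrogenases and their regulators. On HFD 5 passed as lower in control mice and 2 in knockout mice, against 4.9% and 4.85% of all genes. The fitted values were below 0 for 11 of the 13 in control mice and 8 in knockout mice. *Pdha1*, the E1 alpha subunit of pyruvate dehydrogenase, fell by 0.95 in control mice (adjusted p = 0.01382, edgeR) and by 0.54 in knockout mice (adjusted p = 0.06271, edgeR). Its kinase gene *Pdk1* fell by 1.09 (adjusted p = 0.02204, edgeR) and by 0.83 (adjusted p = 0.02939, edgeR). *Bckdha*, the matching subunit of the branched-chain complex, had -0.47 (-1.39 to 0.46) in control mice and -0.01 (-0.89 to 0.87) in knockout mice, intervals that include the *Pdha1* values. Of 9 fatty acid synthesis genes 7 passed as lower in each genotype, with a median of -1.86 in control and -1.86 in knockout mice. Of 14 citric acid cycle genes 1 passed as lower in control mice, where all 14 were below 0 with a median of -0.31. None of them passed in knockout mice, where 5 of the 14 were below 0. *Dld*, the E3 subunit that all these complexes share, had -0.30 in control mice (adjusted p = 0.2923, edgeR) and 0.17 in knockout mice (adjusted p = 0.7097, edgeR).

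Several of the genes are summed from more than 1 annotated transcript, and the split was uneven between mice. *Bckdha*, *Dbt* and *Ppm1k* have 1 transcript each. *Pccb* was divided between a transcript with 15 exons, with group mean shares from 30.3% to 34.7% of its TPM, and one with 14 exons, from 61.1% to 66.7%. Single libraries lay between 5.34% and 61.1% of the former, with no group apart. Only the former holds a coding exon of 111 bases on chromosome 9, which is shown from NCBIM37 at chr9:100913124-100913234, minus strand, 5′ to 3′, since it is the coding difference between the pair, whose 5′ ends also differ in length. Capitals mark the 2 intron bases on each side, an AG before and a GT after.
Exon of *Pccb*: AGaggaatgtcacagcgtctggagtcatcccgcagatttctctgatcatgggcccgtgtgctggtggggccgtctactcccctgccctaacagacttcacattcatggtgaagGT
*Bckdk* was divided between transcripts of 2848 bases (group means 44.6% to 61.3%) and 934 bases (32.7% to 44.0%), and *Bcat2* was mainly its transcript of 1771 bases (68.2% to 82.9%).

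Genes that followed the 9 most closely were ranked by Pearson correlation of log2(TPM + 1) with the mean of the 9 standardised genes, among 15565 other genes over 20 libraries. The 5 highest were *Atp5c1* (0.86), *Ndufa1* (0.84), *Eif3g* (0.84), *Agpat3* (0.83) and *Tbcc* (0.83). *Atp5c1* encodes a subunit of ATP synthase and *Ndufa1* one of respiratory complex I. With group means taken off the leading genes were *Gm9104* (0.87), *A2ld1* (0.86), *Anapc13* (0.83) and *Atp5c1* (0.83). The mean of the 9 genes itself had a correlation of 0.54 with the GC score.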

How the data were processed

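Total RNA of 20 iWAT samples was made into ribosomal-RNA-depleted stranded libraries. Per the labels and the study's methods, STAR 2.5.3 and Salmon 0.13.1 were used on the mm9 build, and the authors deposited, for 96533 transcripts, TPM (transcript abundance scaled for length and depth) and estimated counts. Transcripts were assigned to genes by GENCODE vM1, on that build, and both units were added up; this matched 94334 transcripts to 36611 genes. Unmatched transcripts held 0.377% to 0.581% of the estimated counts of a library. Totals of estimated counts per library were 54605101 to 92387737. There was 1 library per mouse, so p-values measure the spread between mice.

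Gene sums of estimated counts were rounded and fitted with edgeR 4.0.16 (R 4.3.3; quasi-likelihood, TMM scaling) after genes whose average across the libraries in a fit was under 0.5 TPM had been set aside. Diet was tested within each genotype and genotype within each diet (10 libraries each), and the difference in diet response over all 20. A gene was called at a Benjamini-Hochberg adjusted p under 0.1 over all genes. Intervals are 95% intervals of the fitted log2 fold change, gene by gene. The test recovered changes planted in simulated counts, drawn from a model fitted to these data. The share recovered at each size is not given here, so this is no measure of power. DESeq2 1.42.0, limma 3.58.1 on log2(TPM + 1) and log2(TPM + 0.1), other scalings, no filter, and each mouse left out were alternatives, and a GC score covariate and the newer quasi-likelihood method were added after the data were seen. The 9 genes and all lists were chosen with earlier results of these data known. Named genes are the 9, genes of the lists by their counts with those called, *Tmem120a*, the 5 genes most like the mean of the 9, and transcripts over 10% of a member's TPM in a group mean. The GC content of transcripts was read from the GENCODE vM1 coding transcripts. 1 gene that the rule names is not reported here.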

Additional observations from a re-analysis of the deposited data

Results flagged for a closer look

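Values far from the rest of their group of 5 mice were looked for among the 9 genes and the called genes of the rest of the pathway, as a gap to the next mouse of more than 0.71 of the group's range. 4 were found among 68 groups, and chance alone flags about 1 in 20 groups, so this number is near what chance gives. *Bckdha* was 46.0 TPM in control LFD replicate 4, where the other 4 mice had 9.0 to 19.02. *Slc43a1* was 21.3 TPM in the same mouse, where the others had 10.5 to 13.04. *Pccb* was 112.4 TPM in knockout HFD replicate 18, where the others had 77.0 to 85.7. *Bcat1* was 97.2 TPM in control HFD replicate 15, where the others had 22.7 to 38.6. No difference in diet response between genotypes passed for these genes.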

How the results depend on the processing

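No paired analysis was possible because the 4 groups share no replicate numbers. Each result was recomputed with DESeq2, DESeq2-type size factors, no filter, length offsets, limma on log2(TPM + 1) and log2(TPM + 0.1), all 4 groups in 1 fit, and each mouse left out, and, added after the data were seen, with the newer quasi-likelihood method and the GC score. The count of the 9 genes called was 0 in all comparisons, but 2 for diet in control mice and 1 in knockout mice with the GC score, and 1 for genotype on HFD with DESeq2 (*Bckdhb*). With single mice left out it was 0 to 1 for diet in knockout mice, the 1 being *Pccb* without knockout LFD replicate 9, and 0 in the other comparisons. Of the other 32 genes 4 were called for diet in control mice, but 8 with DESeq2, 7 with each limma fit and 10 with the GC score, and 3 to 8 with single mice left out (8 without control LFD replicate 1). In knockout mice 7 were called, but 3 with limma on log2(TPM + 0.1) and 12 with the GC score, and 2 to 7 with single mice left out (2 without knockout LFD replicate 6 or knockout HFD replicate 17, 3 without knockout LFD replicate 8 or knockout HFD replicate 21, and 4 without knockout LFD replicate 9 or 10 or knockout HFD replicate 20). The 9 genes had 696 to 16151 estimated counts in a library, from *Bcat2* at the low end to *Pccb* at the high end.

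The following log2 differences changed sign, and none of them was called. The cause was not tested. For diet in control mice limma (+ 1, then + 0.1) gave 0.066 and 0.065 for *Bckdk*, and 0.11 and 0.11 for *Hibadh*. For diet in knockout mice *Bckdha* was 0.027 and 0.029 with limma and 0.11 with the GC score, and *Bckdk* was -0.15 with length offsets. For the difference in diet response *Bckdk* was -0.090 with length offsets and -0.0076 with limma (+ 1). For genotype on HFD *Bcat2* was 0.019 with the GC score, *Bckdk* 0.053 and 0.063 with limma, and *Pcca* -0.0055 with no filter and -0.0064 with 4 groups in 1 fit. For genotype on LFD limma gave 0.060 and 0.061 for *Bckdk* and 0.0073 and 0.0075 for *Dbt*.

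With single mice left out, values that crossed 0 ran as follows. For diet in control mice *Bckdha* ran from -0.72 to 0.055, *Bckdk* from -0.27 to 0.25, *Pccb* from -0.015 to 0.13 and *Mut* from -0.030 to 0.17. For diet in knockout mice *Bckdha* ran from -0.30 to 0.30, *Bckdhb* from -0.10 to 0.12, *Bckdk* from -0.029 to 0.33 and *Pcca* from -0.19 to 0.0015. For the difference in diet response *Bcat2* ran from -0.083 to 0.35, *Bckdha* from -0.087 to 0.73, *Bckdk* from -0.14 to 0.37 and *Ppm1k* from -0.062 to 0.21. For genotype on HFD *Bcat2* ran from -0.30 to 0.13, *Bckdha* from -0.46 to 0.077, *Bckdk* from -0.34 to 0.060, *Dbt* from -0.0014 to 0.11, *Hibadh* from -0.0078 to 0.16 and *Pcca* from -0.14 to 0.15. For genotype on LFD *Dbt* ran from -0.20 to 0.0035.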
